A study of Mus musculus with 9 samples.

Results

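The cytosolic ribosomal protein genes were followed across c-KIT+ bone marrow of 3 groups of mice. They were chosen by name: protein-coding genes whose mouse symbol starts with Rpl or Rps and a digit, or is Rplp0, Rplp1, Rplp2 or Rpsa, without the Rps6k kinases, pseudogenes or predicted gene names. Of 86 such genes, 85 reached a normalised value of 10 in 3 or more libraries, out of 43629 genes in the table. The remaining one, Rpl10l, a paralog of Rpl10, was listed at 0 in all 9 libraries. The 85 comprise 51 genes of the large subunit, 33 of the small subunit and Rps19bp1, which encodes a binding partner of the Rps19 protein and met the rule by its symbol alone. They lie on 19 chromosomes, 4 of them on the X.

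Each cytosolic ribosome is built from ribosomal RNA and, for nearly every one of these proteins, a single copy, which are made in the cytoplasm, imported into the nucleolus and assembled there into a large and a small subunit. Their messenger RNAs are abundant in all growing cells and begin with a cytosine in a run of pyrimidines, the TOP motif, through which mTORC1 and the RNA-binding protein LARP1 set their translation together. Blood formation is known for its dependence on these genes, since loss of a single allele of several of them causes Diamond-Blackfan anaemia.

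The study asked how deficiency of CHD7, a chromatin remodelling ATPase, bears on leukaemia driven by CBFB-MYH11, a fusion gene of human acute myeloid leukaemia. All mice were C57BL/6 and had received pIpC, an inducer of interferon. WT mice were labelled wild type with no transgene named. KI mice were labelled Mx1-Cre, Cbfb+/56M, in which the interferon-responsive Mx1 promoter drives Cre recombinase and Cre activates the fusion allele at one copy of Cbfb. KI_Chd7del mice were labelled Chd7f/f, Mx1-Cre, Cbfb+/56M, with both copies of Chd7 floxed as well. Mx1 responds in many cells besides blood cells, and the difference of KI from WT measures the fusion and Cre together. Cells carrying CD117, the c-KIT receptor, were isolated with magnetic beads, and each group has 3 libraries. Whether the libraries of a group come from separate mice is not stated in the labels, and p-values therefore reflect only how far these samples spread, which may be technical.

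Values in the deposited table look like read numbers divided by a factor per library and rounded, and are called normalised values here. Their totals were 37.5 to 46.2 M per library, and 73 of the 85 genes averaged over 10000, so that counting noise was small for most of them. Myh11, the partner gene of the fusion, was listed at 5 to 9 (WT), 176 to 219 (KI) and 164 to 187 (KI_Chd7del). Chd7 itself was at 3471, 3745 and 3982 in the WT libraries, 1979, 2934 and 2009 in the KI libraries and 1862, 1794 and 1921 in the KI_Chd7del libraries. The fitted difference of KI_Chd7del from KI for Chd7 did not pass (log2 -0.29, SE 0.14, adjusted p = 0.121), and a value over the whole gene does not show whether the floxed part was removed. Kit, which encodes the receptor used for selection, ranged over 7354 to 7797 (WT), 3226 to 3868 (KI) and 6131 to 8508 (KI_Chd7del). The libraries also differed in mature cells: the summed share of 20 late neutrophil genes ran from 11.19% to 13.25% (WT), from 0.816% to 2.51% (KI) and from 4.01% to 5.20% (KI_Chd7del), with none of the 20 at 0 throughout. In a bulk sample, fewer cells of a type and less RNA per cell cannot be told apart. Fold changes below are on the log2(value + 1) scale from limma, with p-values adjusted by Benjamini-Hochberg over the 15997 genes tested and 0.05 as the threshold. A difference is said to have passed, and a gene to have risen or fallen, only on that basis.

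Several of the annotated start sites carry the pyrimidine run of the TOP motif. In RefSeq's promoter table (GRCm38.p6), 65 of the 85 genes had an entry. A cytosine followed by at least 4 pyrimidines began within 10 bases of the start, on the transcribed strand, in 36 of the 65 (55.4%) and in 30.8% of 27025 promoters in the table. The sequences of 5 members with such a run are shown from 60 bases before to 20 bases from the start. They are on the gene's strand, with the run nearest to the start in capitals. Rpl22 and Rpsa, also named below, had no such run, so the sequences shown do not stand for all members.
Rps12, chr10:23787190-23787269, minus strand: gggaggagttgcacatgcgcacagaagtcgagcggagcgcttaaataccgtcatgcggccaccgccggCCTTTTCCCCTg
Rps24, chr14:24490618-24490697, plus strand: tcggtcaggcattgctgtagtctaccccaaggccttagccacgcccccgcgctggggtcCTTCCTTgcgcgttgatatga
Rpl22l1, chr3:28805448-28805527, plus strand: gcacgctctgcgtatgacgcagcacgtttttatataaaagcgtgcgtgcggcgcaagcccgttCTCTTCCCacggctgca
Rpl39, chrX:37085203-37085282, minus strand: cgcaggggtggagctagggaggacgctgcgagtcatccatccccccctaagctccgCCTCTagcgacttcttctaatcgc
Rpl39l, chr16:10170168-10170247, plus strand: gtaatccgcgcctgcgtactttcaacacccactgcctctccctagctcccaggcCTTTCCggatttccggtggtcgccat
The core of the ETS family site, CCGGAAG, was found on either strand of the whole promoter entry in 25 of 65 members (38.5%) and in 9.12% of all promoters. The YY1 core AAGATGGC, which can overlap it by its first 3 letters, was found in 5 of 65 (7.69%) and in 2.88%. The pyrimidine-rich hexamer CTTTCC was found in 32 of 65 (49.2%) and in 26.3%, and it can lie inside a TOP run. The TATA element TATAAA was found in 6 of 65 (9.23%) and in 14.2%. A match is a description of letters, and annotated starts can lie some bases from the used ones.

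Together the 85 genes took 6.26%, 5.09% and 5.17% of the WT libraries, 6.59%, 5.71% and 6.51% of the KI libraries, and 7.74%, 7.21% and 7.20% of the KI_Chd7del libraries. Each KI_Chd7del library was thus above each of the other 6, while WT and KI overlapped. The mean share was 5.51% ± 0.650 for WT, 6.27% ± 0.485 for KI and 7.38% ± 0.306 for KI_Chd7del (SD, n = 3). An exact 2-sided permutation test gave p = 0.1 for KI_Chd7del against KI and against WT, the smallest value that 3 against 3 libraries allow, and p = 0.2 for KI against WT. The rise of 1.11 percentage points from KI to KI_Chd7del came with more late neutrophil RNA, whose part in the result was not tested beyond leaving those genes out of the total. Without them the share was 6.29% ± 0.654 for WT, 6.37% ± 0.447 for KI and 7.73% ± 0.376 for KI_Chd7del, and the difference of KI from WT shrank from 0.763 to 0.0792 points. The large subunit genes took 2.85% to 3.46%, 3.24% to 3.75% and 4.02% to 4.25% in the order WT, KI and KI_Chd7del, and the small subunit genes 2.24% to 2.80%, 2.47% to 2.84% and 3.18% to 3.49%.

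**Figure D1:**
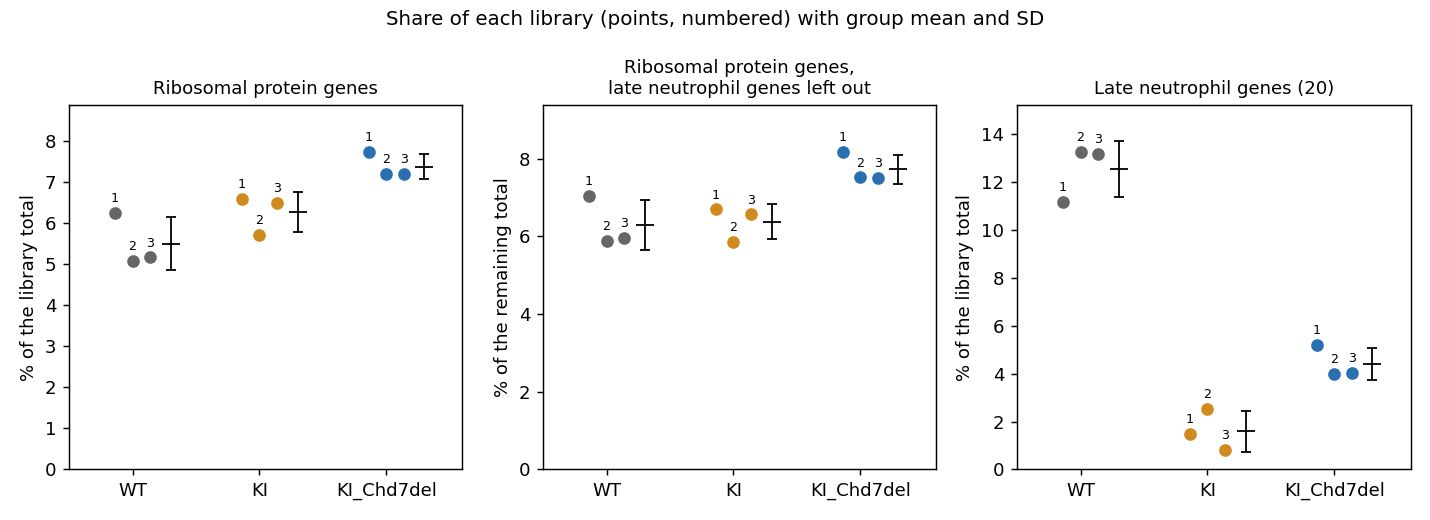
Share of the 85 ribosomal protein genes in each library (left, % of the total; middle, % of the total without 20 late neutrophil genes) and share of those neutrophil genes (right): numbered points are the 3 libraries of a group, with the mean and SD beside them, and the KI_Chd7del libraries lie highest in the left and middle panels, and the order of WT and KI seen at the left is nearly gone in the middle.

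The members moved together within groups as well as between them. WT library 1 was the highest of its group in 76 of 85 genes, KI library 1 in 79 and KI_Chd7del library 1 in 71, and KI library 2 was the lowest of its group in 80. These libraries set much of the spread behind the tests. KI_Chd7del had the highest group mean in 78 of the 85 genes, WT in 4 and KI in 3. KI had the lowest mean in 54, WT in 29 and KI_Chd7del in 2. The counts of this paragraph were not made for all genes tested, and genes that move together are not separate observations.

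Levels were compared between genes per kilobase of the shortest principal transcript. Rps12 stood highest, at a mean normalised value of 90270 per kilobase, followed by Rplp1 at 75350, Rpl32 at 73660 and Rps18 at 73300. Rpsa, a small subunit protein also known as the laminin receptor, had 56430, Rplp0 62770, Rps14 51420, Rps19 45230, Rpl11 32660 and Rpl5 23480. The lowest 10 per kilobase began with Rpl36al at 11220, Rps20 at 7354, Rps27l at 6541, Rpl7l1 at 4399, Rpl22l1 at 4175 and Rps19bp1 at 650.2. Below them came Rps27rt, a retrogene of Rps27, at 316, Rpl24 at 72.4, Rpl39l at 35.2 and Rpl3l, the muscle paralog of Rpl3, at 22.5. All of these but Rps20, Rps19bp1 and Rpl24 are paralogs or retrogenes of other members. The place of Rps20 rests on a listed transcript of 3706 bases, the longest of the 85, since its mean value of 27250 was not low. Rpl24, a core protein of the large subunit, was listed at only 41 to 78 per library, and at 415 to 888 once its 7 matched pseudogene copies were added. Whether its reads are listed under another identifier was not tested, so these values do not show that the gene is weakly expressed.

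KI was compared with WT, the contrast of the fusion allele and Cre together. Few ribosomal protein genes passed: 2 of 85 rose, where 31.8% of all genes tested did, and 9 of 85 fell, where 27.2% did. KI and WT libraries were fully separated in 17 of the 85, and in 67.6% of all genes. The median difference over the 85 was -0.05 with the deposited scaling, -0.08 with TMM and -0.06 with upper-quartile factors, but it turned to 0.18 under column-total scaling, to 0.01 when the late neutrophil genes were left out of that total, and to 0.15 with quantile normalisation. With column totals 17 members rose and 0 fell, and the all-gene median itself went from 0.02 to 0.25. The share of all genes that passed with column totals was not counted. Relative to the median of all genes the members stood at -0.07 with each scaling by a factor and at 0.23 with quantile normalisation, so the direction of the group in KI depends on the scaling. It also depends on single libraries, since the median was 0.02 without WT library 1 and 0.02 without KI library 2. The number of falls was 4 without WT library 1 or KI library 3 and 5 without KI library 2, and that of rises was 4 without KI library 2 and 0 without any one of WT libraries 2 and 3, KI libraries 1 and 3 and KI_Chd7del libraries 2 and 3.

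Of the 9 genes that fell in KI, 4 are paralogs of another member. Rpl22l1, the paralog of the RNA-binding protein gene Rpl22, stood at 2448, 2220 and 2578 (WT) and 1923, 1617 and 1929 (KI), with no overlap. It fell by 0.41 on the log2 scale (SE 0.10, adjusted p = 0.00495), and by 0.18 without passing when scaled to the column total (adjusted p = 0.138). Its parent Rpl22, which is mutated or deleted in some leukaemias, had 15099, 11982 and 12511 against 13014, 11239 and 12644, overlapping groups with a difference of -0.10 (adjusted p = 0.435). Rps27l, a p53-responsive paralog of Rps27, was listed at 3706, 3591 and 3504 (WT) and at 3302, 2929 and 2992 (KI) (log2 -0.23, SE 0.06, adjusted p = 0.00611), a difference that was 0.000232 when scaled to the column total. Rps27 itself was at 22224, 19413 and 19486 against 19222, 15702 and 17811, which did not pass (-0.22, adjusted p = 0.115). Rpl36al (-0.17, adjusted p = 0.0167) and Rpl7l1 (-0.14, adjusted p = 0.0384) also fell. Rpl36al turned to 0.05 under column-total scaling and lost its call without WT library 1 or KI library 3 (adjusted p up to 0.0573), and Rpl7l1 lost its call without any one of 5 libraries (up to 0.119).

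Among the other genes that fell, Rps12 went from 53160, 43627 and 43721 to 37560, 34711 and 37412, so that every KI library lay below every WT library (log2 -0.35, SE 0.10, adjusted p = 0.0160). Rps12 encodes a small subunit protein, and its difference was -0.12 without passing when scaled to the column total (adjusted p = 0.386). Rps29, a Diamond-Blackfan anaemia gene, had 29684, 25055 and 26063 against 23566, 19786 and 22361 (-0.30, SE 0.10, adjusted p = 0.0273). Rpl9 fell by 0.29 (adjusted p = 0.0189) and Rps19bp1 by 0.25 (adjusted p = 0.0209). Only Rpl22l1, Rps12 and Rps27l kept their calls when any 1 of the 9 libraries was left out (adjusted p at most 0.0227, 0.0498 and 0.0266). Rps29, Rpl9 and Rps19bp1 each lost theirs without any one of 2 to 4 libraries (adjusted p up to 0.0927, 0.0635 and 0.0808), WT library 1 and KI library 2 among them for Rps29 and Rpl9. The 2 rises were small: Rpl10, an X-linked large subunit gene mutated in some T cell leukaemias, went from 43773, 38301 and 40590 to 49298, 43850 and 47855 (0.20, adjusted p = 0.0490), and Rpl14 rose by 0.25 with overlapping libraries (adjusted p = 0.0493). Both were lost without any one of at least 6 libraries (adjusted p up to 0.164 and 0.161).

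KI_Chd7del was compared with KI, the contrast of the Chd7 alleles on the fusion background. Here 31 of 85 genes rose and 0 fell, against 17.5% and 22.9% of all genes tested. At an unadjusted p under 0.05, limma gave 52 rises and 0 falls among the members. The share of all genes at that threshold was not counted, so the shares above are no background for it. Complete separation of the KI_Chd7del and KI libraries was seen in 57 of the 85, and in 52.0% of all genes. The median difference was 0.24 where that of all genes was -0.01, and it stayed between 0.24 and 0.32 over the 6 scalings run. Relative to the median of all genes the members stood at 0.25 with each scaling by a factor and at 0.17 with quantile normalisation. Rises were made by 15 of 51 large subunit genes and 15 of 33 small subunit genes, with medians of 0.22 and 0.28, a difference that was not tested. Of the 19 Diamond-Blackfan anaemia genes 9 rose, of the 4 genes of the ribosomal stalk and its base 2 rose (Rplp2 and Rpl12), and neither Rpl5 nor Rpl11 did. The call of Rpl12 was lost without KI library 2 or KI_Chd7del library 1 (adjusted p up to 0.0689). That of Rplp2 was lost without any one of 7 libraries (adjusted p up to 0.144). The number of rises was 15 without KI library 2 and 20 without KI library 3 or KI_Chd7del library 1. It was 49 when scaled to the total without the late neutrophil genes and 56 with upper-quartile factors. The all-gene median was then 0.05 and 0.07, and the share of all genes that rose was not counted.

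**Figure D2:**
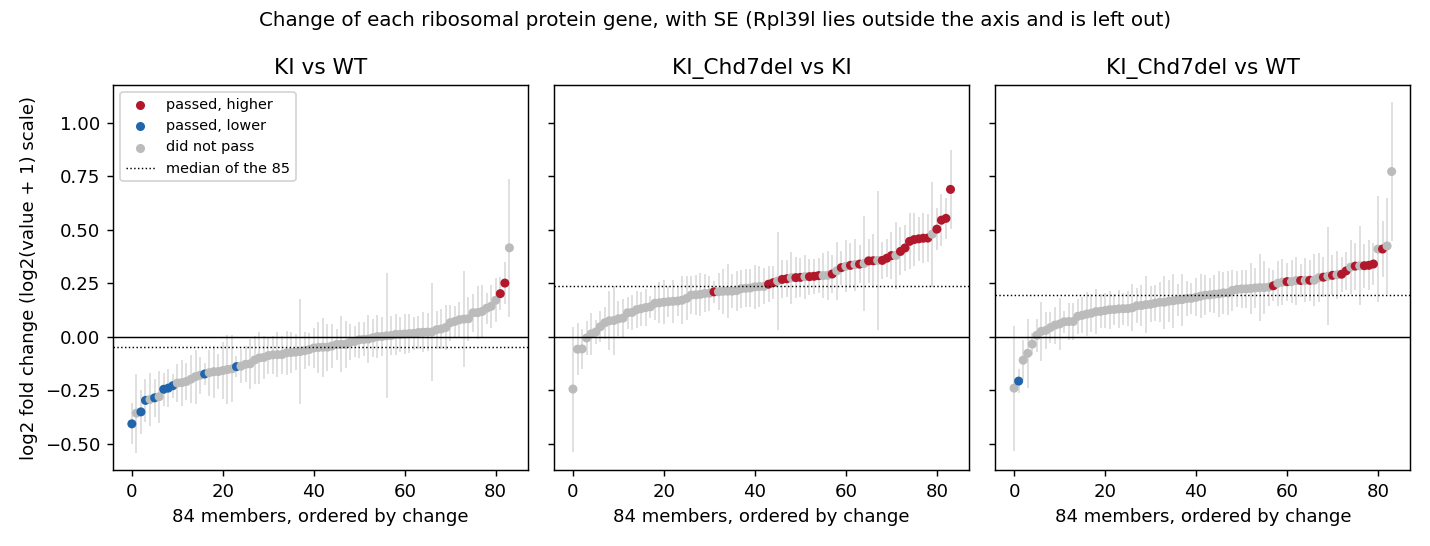
Log2 fold change of each ribosomal protein gene except Rpl39l, which lies off the axis, with its standard error, in rising order per comparison, with red and blue for genes that passed and a dotted line at the median of the 85. Most points lie near 0 for KI against WT and above 0 for KI_Chd7del against KI, where 31 passed.

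Rpl22l1, Rps12 and Rps29, which fell from WT to KI, were among the 8 largest rises. Rpl22l1 went from 1923, 1617 and 1929 to 2967, 2572 and 2487 (log2 0.55, SE 0.10, adjusted p = 0.00222). Rps12 had 37560, 34711 and 37412 against 56868, 47321 and 46961 (0.46, SE 0.10, adjusted p = 0.00800). Rps29 had 23566, 19786 and 22361 against 34684, 29383 and 29133 (0.50, SE 0.10, adjusted p = 0.00423). In none of the 3 did the groups overlap, and against WT the KI_Chd7del values did not pass (0.15, 0.11 and 0.21, adjusted p = 0.234, 0.427 and 0.117). Since KI stands in both comparisons, a low value in KI lowers the first and raises the second.

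Other large rises were those of Rps27a, which encodes a fusion of ubiquitin with a small subunit protein, and of the X-linked Rpl36a, whose protein sits at the exit site of the large subunit. Rps27a rose from 22319, 19400 and 20055 to 41778, 32316 and 26961 (0.69, SE 0.19, adjusted p = 0.0169), with library 1 highest and a wide spread also in WT (30679, 20282 and 29374). Rpl36a had 13609, 11746 and 13201 against 22433, 17189 and 17003 (0.55, SE 0.12, adjusted p = 0.00764). Rps20 rose by 0.46 (adjusted p = 0.0109), Rps24, a Diamond-Blackfan anaemia gene, by 0.46 (adjusted p = 0.0134) and Rps27 by 0.42 (adjusted p = 0.0148). For Rps24 the values were 53361, 45517 and 51018 against 80415, 62974 and 63798. In all, 14 members, among them the 8 of this and the preceding paragraph, Rpl39l, Rpl7l1, Rpl9, Rps23 and Rps9, rose whichever single library was left out (adjusted p at most 0.0486). The other 17 calls were lost without at least 1 library.

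**Figure D3:**
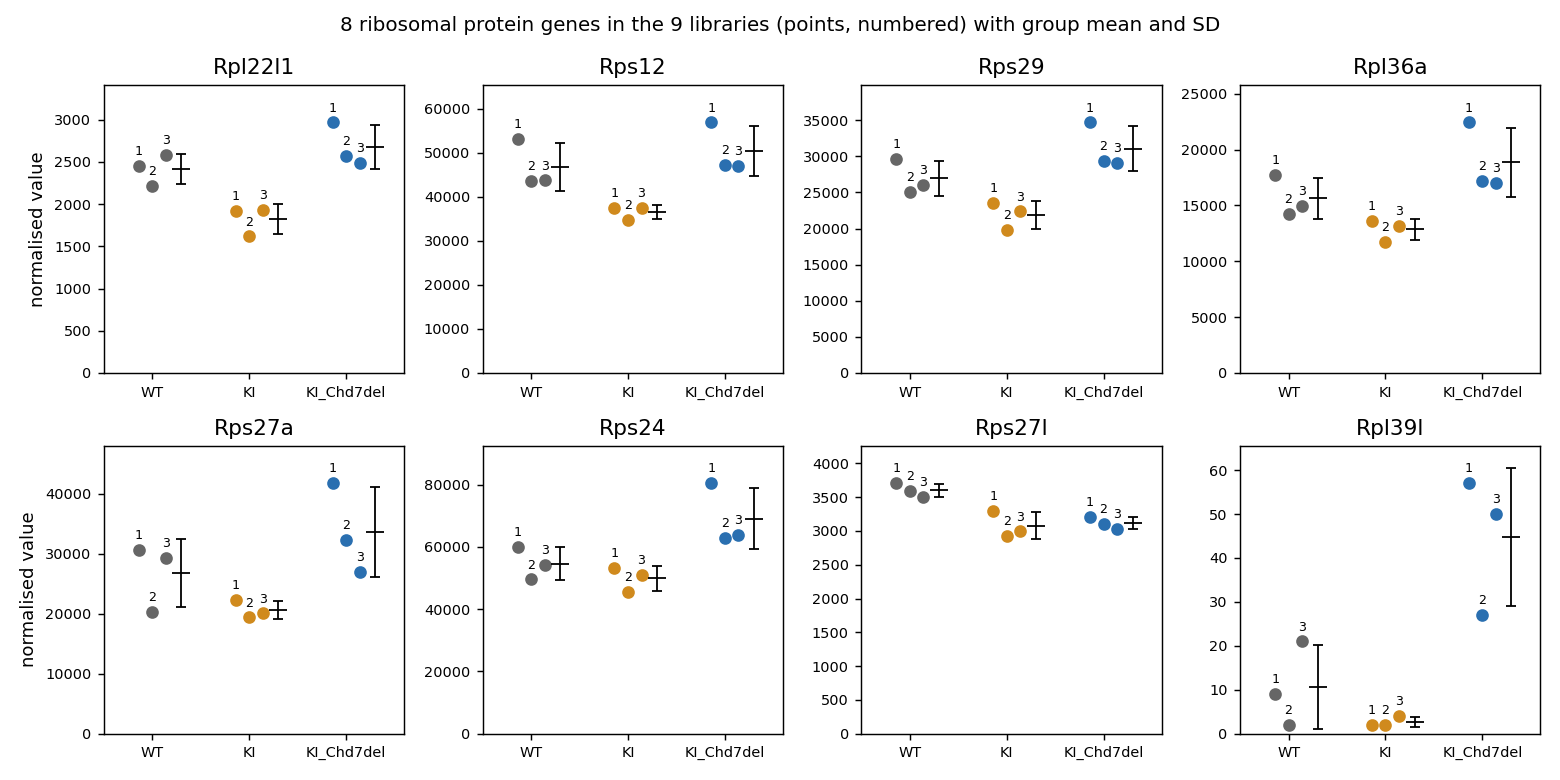
Normalised values of 8 ribosomal protein genes in the 9 libraries, with group mean and SD, on axes that start at 0. In the top row KI lies below both other groups, Rps27l stays low in KI and KI_Chd7del, and Rpl39l is at 27 to 57 in the KI_Chd7del libraries and at most 21 in the other 6.

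Besides Rps24 and Rps29, several members are known from blood disease. Rps19, the gene most often mutated in Diamond-Blackfan anaemia, went from 28359, 24108 and 27970 to 35510, 31533 and 30344 (0.28, SE 0.09, adjusted p = 0.0431), a call lost without any one of 7 libraries (adjusted p up to 0.126). Rps14, whose loss underlies the anaemia of a myelodysplastic deletion syndrome, had 29691, 24708 and 28455 against 41862, 31487 and 31402. The groups did not overlap, yet the difference of 0.33 did not pass (SE 0.12, adjusted p = 0.0581). Rpl5 and Rpl11, whose proteins bind 5S ribosomal RNA and can restrain MDM2, differed by 0.22 (adjusted p = 0.0958) and 0.16 (adjusted p = 0.102). Rpl22 rose by 0.35 (adjusted p = 0.0221), which was lost without KI library 2 or KI_Chd7del library 1 (adjusted p up to 0.0667). Rpsa differed by 0.19 (adjusted p = 0.112).

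Rpl39 and Rpl39l differ in scale and share a direction. Rpl39, an X-linked gene for a small protein of the peptide exit tunnel, stood at 13539, 10894 and 11769 (WT), 12694, 10633 and 11938 (KI) and 19567, 14500 and 14355 (KI_Chd7del). It rose against KI by 0.45 (SE 0.13, adjusted p = 0.0244), a call lost without KI library 2 or 3 (adjusted p up to 0.0730), and against WT by 0.41 (SE 0.13, adjusted p = 0.0283), a call lost without WT library 2 or 3 or KI_Chd7del library 1 (adjusted p up to 0.101). Rpl39l, its paralog best known from the testis, was at 9, 2 and 21 (WT), 2, 2 and 4 (KI) and 57, 27 and 50 (KI_Chd7del). These are low values, near the limit of counting, and each KI_Chd7del library was above the other 6. Of those 6 only WT library 3 reached 10, so Rpl39l met the filter through the KI_Chd7del libraries, the group where it is high. Rpl39l rose by 3.62 against KI (SE 0.65, adjusted p = 0.00282) and by 2.32 against WT (SE 0.65, adjusted p = 0.0164), and without the filter the adjusted p was 0.00407 and 0.0247. Both calls held whichever single library was left out (adjusted p at most 0.0128 and 0.0495), but the size depends on the pseudocount: with 16 in place of 1 the differences were 1.67 and 1.21. Even so it amounted to 0.186% to 0.348% of the value of Rpl39 in KI_Chd7del.

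Ratios of a paralog to its parent are free of library scaling. Rpl22l1 stood at 18.5% ± 2.20 of Rpl22 for WT, 14.8% ± 0.435 for KI and 17.0% ± 0.114 for KI_Chd7del (SD, n = 3), with no overlap of KI with either group (exact permutation p = 0.1 for both, the smallest possible). Rps27l was at 17.7% ± 0.939 of Rps27 for WT, 17.5% ± 0.980 for KI and 13.4% ± 1.34 for KI_Chd7del, and Rpl36al at 39.7% ± 2.82, 42.8% ± 2.48 and 32.4% ± 3.88 of Rpl36a. For Rps27l and Rpl36al every KI_Chd7del library lay below the other 6 (exact permutation p = 0.1). Rpl7l1 was at 11.1% ± 0.671, 10.6% ± 0.277 and 10.6% ± 0.727 of Rpl7, with overlap throughout.

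KI_Chd7del was also compared with WT, which shares the KI_Chd7del libraries with the preceding comparison. In this comparison 14 of 85 genes rose and 1 fell, against 24.0% and 24.3% of all genes tested. The number of rises depends on the scaling: it was 78 with column totals, 62 with quantile normalisation, 56 with the late neutrophil genes left out of the total and 37 with upper-quartile factors, each with 0 falls. The shares of all genes that passed under these scalings were not counted. The all-gene median itself went from 0.02 with the deposited scaling to 0.26, -0.01, 0.14 and 0.09, in that order. With the deposited scaling the libraries were fully separated in 30 of 85, against 57.6%. The median was 0.19, and between 0.19 and 0.44 over the 6 scalings. Relative to the median of all genes it was 0.17 to 0.18 with each scaling by a factor and 0.38 with quantile normalisation. After Rpl39l and Rpl39 the largest rises were those of Rpl10a (from 25938, 21680 and 22518 to 32463, 28475 and 27786, or 0.34, SE 0.10, adjusted p = 0.0194), Rps24 (0.33, adjusted p = 0.0410), Rps7 (0.33, adjusted p = 0.0251) and Rpl12 (0.33, adjusted p = 0.0332). Rps15a rose by 0.31 (adjusted p = 0.0190) and Rps6, the protein phosphorylated by the S6 kinases, by 0.29 (adjusted p = 0.0152). Rps19 rose by 0.29 (adjusted p = 0.0316). The 14 rises rest on single libraries: 1 passed without WT library 2, 2 without WT library 3, 5 without KI_Chd7del library 1 and 38 without WT library 1. Rps27l fell, with 3210, 3105 and 3036 in KI_Chd7del against 3504 to 3706 in WT (-0.21, SE 0.06, adjusted p = 0.0130), but stood at 0.04 when scaled to the column total.

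Centring each library on the mean of the 85 genes shows which members moved against the others, on a scale that library factors do not alter. In KI against WT, 5 members were higher and 3 lower than the rest (48.8% of all genes tested passed on this scale, 4930 higher and 2880 lower). The lower members were Rpl22l1 (-0.33, adjusted p = 0.00765), Rps12 (-0.28, adjusted p = 0.0258) and Rps29 (-0.22, adjusted p = 0.0336), and the higher ones Rpl14, Rpl10, Rps7, Rpl10a and Rpl19, by 0.21 to 0.33. In KI_Chd7del against KI, 5 members were higher and 5 lower (45.7% of all genes, 863 higher and 6446 lower). Rpl39l, Rps27a, Rpl22l1, Rpl36a and Rps29 rose above the rest, and Rps2, Rpl10, Rpl14, Rps27l and Rpl19 fell behind by 0.24 to 0.34. In KI_Chd7del against WT, Rpl39l was higher and Rps27l (-0.42, adjusted p = 0.00203), Rps2 (-0.32, adjusted p = 0.0115) and Rpl36al (-0.25, adjusted p = 0.0219) were lower (46.6% of all genes, 2189 higher and 5273 lower). Centring takes the members' common shift out of them and puts it, reversed, on all other genes. The all-gene shares on this scale are therefore no like background for the members. Centred on the members' median in place of the mean, 1 member was higher and 5 lower in KI against WT, and 5 were higher and 1 lower in KI_Chd7del against KI. The counts also rest on single libraries. In KI against WT they were 1 higher and 1 lower without KI library 1 or KI library 3, and 5 higher and 6 lower without KI_Chd7del library 1. In KI_Chd7del against KI they were 1 higher and 1 lower without KI library 1, and 4 higher and 6 lower without WT library 1. The call of Rpl39l against WT was lost on this scale without WT library 2 or KI_Chd7del library 1 or 3.

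Many members have near-identical pseudogene copies, and in the values listed under these KI_Chd7del library 1 stood apart. By sequence, 1102 annotated copies matched 82 of the members, and 777 of them had a value above 0. They took 0.407% of KI_Chd7del library 1 against 0.228% and 0.230% in the other libraries of that group, 0.138% to 0.190% in WT and 0.135% to 0.175% in KI. Rps3a1 (chromosome 3, GRCm38 86137940 to 86142702) had 27512 in library 1 and 66614 and 65479 in libraries 2 and 3, while its intronless copy Rps3a3 (chromosome 13, 108670603 to 108671397) had 25499 against 904 and 885. Rplp0, the stalk protein gene often used as a reference in quantitative PCR (chromosome 5, 115559467 to 115563727), had 71493 against 92768 and 92206, and its copy Gm8730 (chromosome 8, 102864845 to 102865798) 17345 against 2059 and 1964. The coding sequences show how little separates them: Rps3a1 and Rps3a3 differ at 9 of 795 positions and Rplp0 and Gm8730 at 12 of 954. The 90-base stretch of each pair with the most differences, from GENCODE M21 transcripts, carries the differing bases in capitals.
Rps3a1: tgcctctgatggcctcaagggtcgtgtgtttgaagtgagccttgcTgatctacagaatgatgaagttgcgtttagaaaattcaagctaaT
Rps3a3: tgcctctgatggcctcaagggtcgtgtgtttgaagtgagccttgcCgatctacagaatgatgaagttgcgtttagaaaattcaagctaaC
Rplp0: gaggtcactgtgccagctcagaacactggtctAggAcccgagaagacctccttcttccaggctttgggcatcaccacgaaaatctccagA
Gm8730: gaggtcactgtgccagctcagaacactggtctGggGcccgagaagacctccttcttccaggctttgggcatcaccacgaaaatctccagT
Adding all matched copies brought Rps3a1 to 57150 in library 1 beside 68525 and 67377, and Rplp0 to 92642 beside 95662 and 94996. A like shift was seen for copies of Rpl11 (Gm10036, 2285 against 440 and 444), Rps7 (Gm6472, 2217 against 316 and 313) and Rpl3 (Rpl3-ps1, 3582 against 1103 and 1087). Adding copies did not level every member. Rpl30 had 12609 in KI_Chd7del library 1 against 20121 and 19907, and 14590 against 21309 and 21145 with its copies. Other libraries stood apart for single members: Rpl29 was at 11862 in WT library 1 and 11383 in KI library 3, where its copies held 10.9% and 9.33% of the family, against 17837 to 20493 in the other 7, and copies of Rpl15 held 11.8% of the family in KI_Chd7del library 3. Whether any of this lies in the sample or in how reads were divided was not tested. The shift in KI_Chd7del library 1 touches the values of Rplp0, which overlapped between all groups (differences of 0.12, -0.06 and 0.06, adjusted p = 0.430, 0.726 and 0.715). Rpl37a had its own split, with matched copies holding 1.48% to 25.5% of the family, chiefly Gm4149, which held 99 in KI library 1 and 148 in KI_Chd7del library 1 but 4254 in WT library 1.

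**Figure D4:**
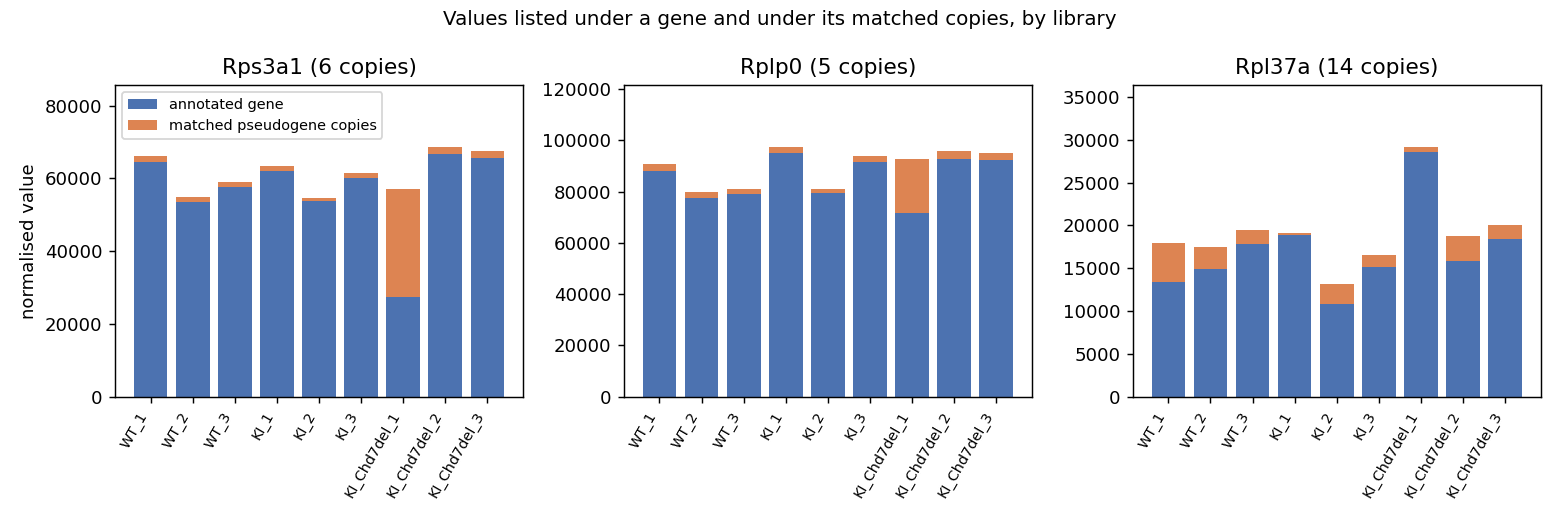
Normalised value listed under a gene (blue) and under its matched pseudogene copies (orange) in each of the 9 libraries, for 3 members. In KI_Chd7del library 1 the copies hold 51.9% of the Rps3a1 family and 22.8% of the Rplp0 family, against at most 3.03% in the other 8 libraries, whereas those of Rpl37a vary in each group.

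Proteins that share the ribosome or the TOP motif without meeting the naming rule were looked at from lists. Rack1, the small subunit scaffold, stood at 59733, 51414 and 53138 (WT), 66858, 55182 and 65458 (KI) and 69667, 65627 and 63534 (KI_Chd7del), a rise over WT of 0.28 (SE 0.10, adjusted p = 0.0384). Fau, which encodes a ribosomal protein fused to a ubiquitin-like sequence, did not pass in any comparison. Of 15 translation factors and others whose mRNAs carry the TOP motif, 1 rose and 1 fell in KI against WT, 2 rose in KI_Chd7del against KI, and 6 rose in KI_Chd7del against WT. All genes tested gave 31.8% rises and 27.2% falls, 17.5% and 22.9%, and 24.0% and 24.3%, in that order. These shares also stand beside the lists below with the deposited scaling, and none was counted for other scalings. Under column-total scaling the 15 gave 9 rises and 0 falls, 2 rises, and 14 rises. Eef2, the translocase of elongation, rose in KI from 108622, 97206 and 97901 to 148553, 125015 and 145914 (0.46, SE 0.10, adjusted p = 0.00350). Eef1b2, the exchange factor of elongation, rose from KI to KI_Chd7del by 0.44 (adjusted p = 0.0150) and Pabpc1, the poly(A)-binding protein, by 0.22 (adjusted p = 0.0338).

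Ribosome assembly genes fell in KI and rose in KI_Chd7del against KI more often than they went the other way, the first not under column-total scaling. Of 41 biogenesis genes 19 fell and 5 rose in KI (median -0.16), 20 rose and 0 fell in KI_Chd7del against KI (median 0.19), and 10 rose and 7 fell in KI_Chd7del against WT (median 0.08). Scaled to the column total, the KI list turned to 13 rises and 6 falls (median 0.07), and KI_Chd7del against WT to 31 rises and 0 falls (median 0.33). Nop10, a core protein of pseudouridylation particles, stood at 3296, 3170 and 3088 (WT), 2295, 2231 and 2144 (KI) and 2923, 3141 and 3044 (KI_Chd7del). It fell by 0.52 (SE 0.05, adjusted p = 2.43e-05) and rose by 0.45 (SE 0.05, adjusted p = 0.000267). Wdr12, of the PeBoW complex for large subunit maturation, followed the same course (-0.47 and 0.48, adjusted p = 0.000177 and 0.000564). Nmd3, the export adaptor of the large subunit, fell in KI (-0.37, adjusted p = 0.000246) and was also lower in KI_Chd7del than in WT (-0.33, adjusted p = 0.000927).

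Of 14 RNA polymerase I genes, 4 rose and 4 fell in KI, and 3 rose and 0 fell in each of the other comparisons. The rises, and the falls in KI, lie close to the all-gene shares given above. The 0 falls of KI_Chd7del stand beside 22.9% of all genes against KI and 24.3% against WT. Under column-total scaling 5 rose and 1 fell in KI, and 10 rose in KI_Chd7del against WT, and with upper-quartile factors 8 rose in KI_Chd7del against KI. Cd3eap, a polymerase I subunit, fell in KI by 0.48 (adjusted p = 0.000195) and rose in KI_Chd7del against KI by 0.37 (adjusted p = 0.00237). Of 10 genes of mTORC1 and LARP1 that could be tested, 6 rose and 2 fell in KI, 1 rose and 4 fell in KI_Chd7del against KI, and 4 rose and 2 fell against WT (8 and 2 under column-total scaling). Tsc1, an inhibitor of mTORC1, rose in KI from 1152, 1305 and 1299 to 2280, 2239 and 2443 (0.89, SE 0.06, adjusted p = 4.15e-06) and fell back by 0.48 in KI_Chd7del (adjusted p = 6.00e-04). Mlst8, a subunit of the complex, went from 2978, 3224 and 3006 to 1085, 1253 and 959 (-1.49, SE 0.11, adjusted p = 5.12e-06). Of the same list, Rptor rose in KI (0.72, SE 0.05, adjusted p = 6.38e-06) and Eif4ebp1 fell (-0.50, SE 0.05, adjusted p = 5.13e-05). Whether the activity of mTORC1 differed was not tested.

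The mitochondrial ribosome was used as the closest comparison, with 75 genes tested. In KI, 54 fell and 1 rose (median -0.25), against 9 and 2 of the cytosolic 85. In KI_Chd7del against KI 18 rose and 3 fell (median 0.10), against 31 and 0, and in KI_Chd7del against WT 1 rose and 32 fell (median -0.16), against 14 and 1. The all-gene shares of rises and falls were 31.8% and 27.2%, 17.5% and 22.9%, and 24.0% and 24.3%, in that order. Scaled to the column total the KI falls became 13 with 7 rises, and the last comparison turned to 18 rises and 2 falls. In KI_Chd7del against KI there were 36 rises and 1 fall with upper-quartile factors, and 38 and 1 with quantile normalisation. Mrpl44 stood at 1925, 1844 and 1945 (WT), 1204, 1213 and 1249 (KI) and 1544, 1665 and 1675 (KI_Chd7del) (-0.64 and 0.41, adjusted p = 9.30e-06 and 0.000509).

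**Figure D5:**
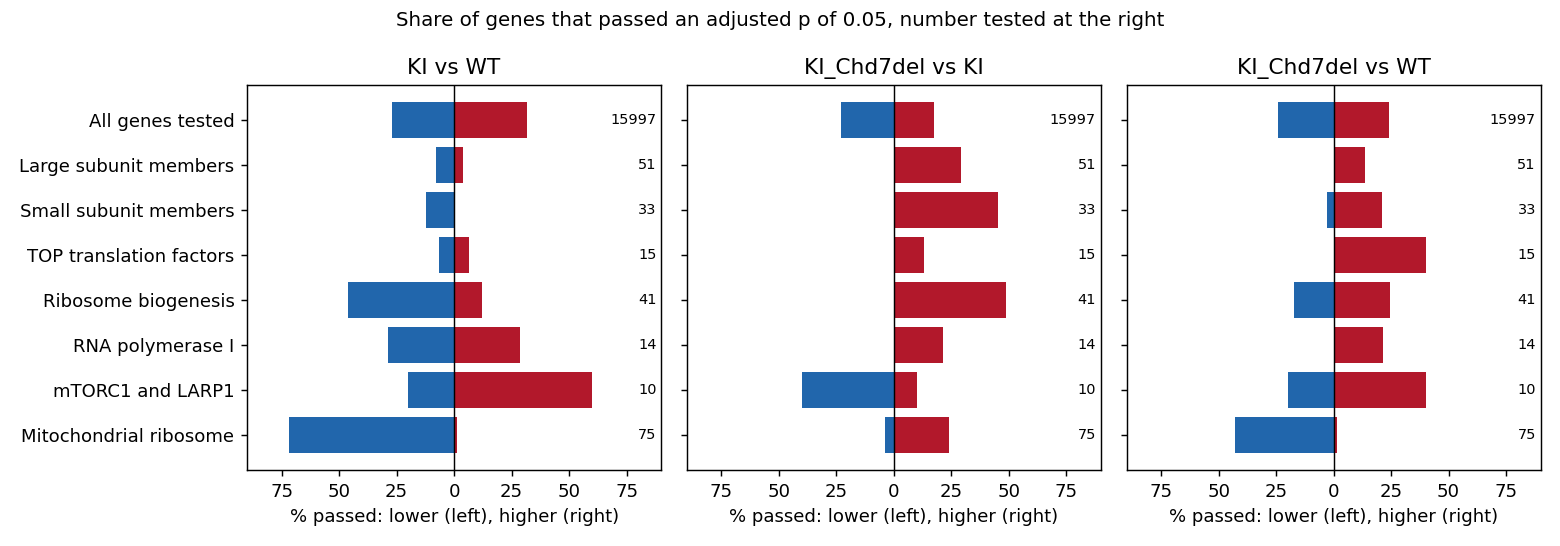
Share of genes that passed an adjusted p of 0.05 as lower (blue, left) or higher (red, right) in the 3 comparisons, for all genes tested, the members by subunit and 5 related lists, with the number tested at the right of each bar. With the deposited scaling, members show few calls for KI against WT, where 54 of 75 mitochondrial ribosome genes fell, and rises alone for KI_Chd7del against KI.

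Other cell types also differed between the groups, and their part in the results above was not tested. Summed over 14 monocyte and macrophage genes, the share was 0.749% to 0.964% (WT), 1.04% to 1.13% (KI) and 0.725% to 0.873% (KI_Chd7del). A sum is weighted to the most abundant genes. Gene by gene, 11 of the 14 rose and 2 fell in KI against WT (median 2.29). In KI_Chd7del 1 rose and 11 fell against KI (median -1.20), and 9 rose and 1 fell against WT (median 0.52). Over 15 erythroid genes the summed share was 0.255% to 0.307%, 0.444% to 0.609% and 0.185% to 0.268%, and over 10 mast cell and basophil genes 0.0296% to 0.0371%, 0.296% to 0.468% and 0.138% to 0.188%. Over 14 stem and progenitor genes it was 0.0283% to 0.0342%, 0.0702% to 0.0917% and 0.0840% to 0.0887%, and in KI_Chd7del against KI 9 of the 14 rose and 4 fell (median 0.67). Over 12 B cell genes it was 0.0176% to 0.0229%, 0.0371% to 0.0536% and 0.0530% to 0.1001%, and in the same comparison 8 rose and 1 fell (median 0.86). No gene of these lists was at 0 in all libraries. Granule genes of early granulocytes, 9 of 10 tested, took 0.930% to 1.07% (WT), 0.457% to 0.626% (KI) and 0.785% to 1.06% (KI_Chd7del).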

How the data were processed

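The submitters' labels describe RNA-seq of total RNA from CD117-selected bone marrow, 9 libraries in 3 groups of 3. The authors deposited whole numbers per Ensembl gene that are normalised read numbers (treated as a score, since the values show division by a library factor and rounding). The programs listed, without role or order, per the submitters' processing notes are STAR 2.4, CASAVA 1.8.2, DESeq2 and RSEM, with GRCm38 as build. The annotation release is not given in the sources used here, and GENCODE M21 supplied symbols. Because the values are normalised, no count test was run. Genes reaching 10 in 3 or more libraries were fitted with limma 3.58.1 (mean-variance trend, log2(value + 1), 9 libraries, no replicate block) in R 4.3.3, and 2-sided p-values were adjusted by Benjamini-Hochberg. The fit was tested on simulated data for KI against WT. Of 100 genes changed by 0.25 on the log2 scale 9 passed, and of 100 changed by 0.5, 74 passed. A gene that did not pass can therefore still differ by such amounts. Far more genes passed in the real data, so these shares may not hold there. Composition was fitted after subtracting the members' mean from each library. Shares of the total were tested by exact permutation. Pseudogene transcripts were matched to members with BLAST 2.17.0 (identity at least 80%, at least 50% of the copy).

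The members and lists were chosen with earlier results of these data known. Named members are 12 set beforehand and up to 8 per direction with the largest changes that passed without overlap. From each related list, up to 4 genes with the smallest adjusted p were eligible. Rpl14, Rpl19, Rps2, Rps3a1, Rpl37a, Rpl7l1, Rps23, Rps9, Rplp2, Rpl24, Rpl30, Rpl29, Rpl15 and members ranked by level were named after their values were seen. Alternatives were other scalings, pseudocounts and filters, a replicate block and each library left out. Adding pseudogene copies and leaving out WT library 1 with KI library 2 were chosen after seeing the data. Results that need items withheld for evaluation are not reported here.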

Additional observations from a re-analysis of the deposited data

How the results depend on the processing

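Over 1262 single-gene values recomputed under the alternatives, 1108 kept their side of the threshold (42 of them with another sign, past it in neither), 105 fell below it, 46 rose above it and 3 that had passed changed sign. These 3 were Rpl36al (0.0549) and Rps27l (0.000232) in KI against WT, and Rps27l (0.039) in KI_Chd7del against WT, all scaled to the column total.

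Rises in KI against WT numbered 17 when scaled to the column total or quantile normalised, 0 with TMM or upper-quartile factors, a pseudocount of 16, no filter, no trend or only the 6 libraries compared, 1 with copies added and 9 without WT library 1 and KI library 2. Falls numbered 0 when scaled to the column total, 3 when the late neutrophil genes were left out of it and 2 without those 2 libraries. The median was 0.179 with the column total, 0.146 with quantile normalisation and 0.0801 without the 2 libraries. In KI_Chd7del against KI, 49 rose with the neutrophil genes left out of the total and 56 with upper-quartile factors, and 1 fell with quantile normalisation. In KI_Chd7del against WT, 78 rose with the column total (median 0.442), 56 without neutrophil genes (0.313), 37 with upper-quartile factors, 62 with quantile normalisation (0.371), 8 without the trend and 50 without the 2 libraries, and 0 fell with the first 4 of these. Centred on the median, composition gave 1 higher and 5 lower in KI against WT and 1 lower in KI_Chd7del against KI. The shares of all genes that passed under the alternatives of this paragraph were not counted.

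With 1 library left out, rises and falls ranged from 0 to 4 and 4 to 13 in KI against WT, rises from 15 to 38 in KI_Chd7del against KI and from 1 to 38 in KI_Chd7del against WT. For composition the ranges were 1 to 5 and 1 to 6, 1 to 4 and 1 to 6, and 0 to 1 higher. Deviations of same-numbered samples correlated at -0.153 to 0.109 over all genes and at -0.427 to 0.561 over the members. These correlations were not above 0.1 in every pair, and the numbers were not taken to pair the samples. The check cannot exclude pairing, because a correlation over genes leaves out a shift common to all members. Library 1 was the highest of each group for most members. A replicate block gave 1 rise and 16 falls, 47 rises, and 37 rises in the 3 comparisons, and for composition 7 lower, 10 lower and 2 higher. The cause of these shifts was not tested. Rounded, normalised values keep no exact depth, which limits Rpl39l, Rpl3l, Rpl24 and Rps27rt most.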
